A study of Mus musculus with 10 samples.

Results

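Cell cycle genes were examined in cultured mouse adipose stem and precursor cells (ASPCs). There were 50 of them among the 25229 rows of the count table, taken by gene name from a list made with earlier results of these data known. They were 19 genes that are used around the entry into S phase (G1/S genes) and 23 genes that are used in G2 and mitosis (G2/M genes). The other 8 were regulators of G1, namely the 3 D-type cyclins and 5 inhibitors of cyclin-dependent kinases (CDKs). ASPCs were sorted as CD45-CD31-Pdgfra+ cells from the stromovascular fraction of perigonadal white adipose tissue of WT mice and grown, without passaging, until they were confluent. Cells of 5 libraries then received 100 nM FICZ, a tryptophan photoproduct that activates the aryl hydrocarbon receptor (AHR), and cells of the other 5 libraries received DMSO, its vehicle. Lysates for bulk RNA sequencing were taken after 6 hr. The age of the mice is not given in the sources used here, nor is what the replicate numbers 1 to 5 in each group stand for, so p-values measure the spread between these libraries. All cultures had been grown to confluence, and whether cells were synchronised is not given in the sources used here. Each value is an average over all cells of a library, and fewer cycling cells cannot be told apart from less RNA of a gene per cycling cell.

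Entry into S phase is driven by E2F transcription factors. These are held back by the retinoblastoma protein until cyclin D and cyclin E kinases phosphorylate it, and E2F then switches on the replication licensing factors, the nucleotide-making enzymes and cyclin E itself. Genes of G2 and mitosis follow later, and many are repressed in resting cells by the DREAM complex through a CHR element, and activated through CCAAT boxes that are bound by NF-Y. In adipose tissue, precursor cells divide before they differentiate, and cells in a dense culture slow their division through contact inhibition, in which CDK inhibitors such as p27 and the transcriptional co-activator YAP take part.

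The promoters of 6 members are shown to display these elements, because the phase groups differ in CHR and E2F letters. These 6 genes also include some that were low (Mki67, Cenpf, Mcm3 and Mcm5) and some that were high (Ccnb2 and Ube2c) in one of the control libraries described later. Sequences are from RefSeq on GRCm38.p6, the assembly of mm10, and run 5′ to 3′ on the strand of the gene, each covering 300 bases that end 50 bases after the transcription start. In the first 4, all G2/M genes, capitals mark CCAAT boxes (CCAAT) and CHR letters (TTTGAA or TTCGAA), each on either strand. Ccnb2 (cyclin B2, chr9:70421505-70421804, minus strand) has 3 CCAAT boxes and 2 CHR matches, Ube2c (the ubiquitin-conjugating enzyme of the anaphase-promoting complex, chr2:164769679-164769978, plus strand) has 6 and 1, Mki67 (the Ki-67 protein of the mitotic chromosome surface, chr7:135716330-135716629, minus strand) has 3 and 2, and Cenpf (a kinetochore protein, chr1:189688037-189688336, minus strand) has 2 and 1. In the last 2, both G1/S genes, capitals mark E2F letters (TTTCCCGC, TTTCGCGC, TTTGCCGC or TTTGGCGC, either strand). Mcm3 (chr1:20820263-20820562, minus strand) and Mcm5 (chr8:75109259-75109558, plus strand), both subunits of the replicative helicase, have 2 matches each, which overlap in Mcm5. Both windows also hold 3 CCAAT boxes each, which are left in lower case.
Ccnb2: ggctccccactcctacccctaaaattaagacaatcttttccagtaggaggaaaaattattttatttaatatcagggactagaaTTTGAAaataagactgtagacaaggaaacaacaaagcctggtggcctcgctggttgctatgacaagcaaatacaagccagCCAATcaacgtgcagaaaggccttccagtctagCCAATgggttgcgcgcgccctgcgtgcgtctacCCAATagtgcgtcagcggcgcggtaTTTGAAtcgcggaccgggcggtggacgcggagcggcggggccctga
Ube2c: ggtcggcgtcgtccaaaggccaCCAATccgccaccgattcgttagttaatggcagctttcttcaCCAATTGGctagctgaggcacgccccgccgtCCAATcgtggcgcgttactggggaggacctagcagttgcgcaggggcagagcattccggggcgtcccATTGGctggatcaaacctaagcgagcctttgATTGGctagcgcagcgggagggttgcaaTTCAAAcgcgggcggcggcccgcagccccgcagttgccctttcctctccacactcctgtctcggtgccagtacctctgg
Mki67: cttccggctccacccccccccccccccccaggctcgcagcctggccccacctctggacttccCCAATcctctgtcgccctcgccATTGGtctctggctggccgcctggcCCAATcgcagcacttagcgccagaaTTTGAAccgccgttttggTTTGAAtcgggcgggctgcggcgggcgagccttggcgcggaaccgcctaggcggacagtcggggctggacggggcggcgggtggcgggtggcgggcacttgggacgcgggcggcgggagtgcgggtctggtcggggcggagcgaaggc
Cenpf: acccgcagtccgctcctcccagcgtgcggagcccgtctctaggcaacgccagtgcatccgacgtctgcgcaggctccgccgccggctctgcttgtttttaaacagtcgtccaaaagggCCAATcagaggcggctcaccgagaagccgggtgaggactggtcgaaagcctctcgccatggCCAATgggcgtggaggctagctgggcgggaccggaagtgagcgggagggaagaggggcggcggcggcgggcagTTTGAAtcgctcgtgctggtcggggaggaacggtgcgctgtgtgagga
Mcm3: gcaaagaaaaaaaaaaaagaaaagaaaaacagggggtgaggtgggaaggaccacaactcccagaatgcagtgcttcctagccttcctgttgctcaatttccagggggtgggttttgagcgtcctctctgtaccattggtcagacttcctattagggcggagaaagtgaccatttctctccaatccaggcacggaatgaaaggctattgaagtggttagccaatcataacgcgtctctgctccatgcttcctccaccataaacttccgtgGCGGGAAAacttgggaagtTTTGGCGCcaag
Mcm5: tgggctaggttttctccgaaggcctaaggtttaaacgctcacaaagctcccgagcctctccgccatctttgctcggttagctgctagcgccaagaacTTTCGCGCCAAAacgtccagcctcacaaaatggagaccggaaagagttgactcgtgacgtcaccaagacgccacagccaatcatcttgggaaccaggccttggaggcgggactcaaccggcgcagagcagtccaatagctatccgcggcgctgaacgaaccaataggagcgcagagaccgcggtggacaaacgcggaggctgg

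Promoter windows were at hand for 16 of the 19 G1/S genes, 19 of the 23 G2/M genes and 5 of the 8 regulators. Mcm4, Ccne2, Gins2, Ccna2, Aurkb, Kif20a, Tpx2, Ccnd1, Ccnd2 and Cdkn1c were not matched. Among the G2/M genes, 17 of 19 held a CCAAT box and 15 of 19 held CHR letters, and the same 15 held both. Over the 11201 genes tested that have a window, 42.9% held CCAAT, 16.6% held CHR letters and 8.16% held both. CCAAT boxes were not particular to the G2/M genes, since 11 of 16 G1/S genes and 4 of 5 regulators held one too. Among the G1/S genes, 7 of 16 held E2F letters, against 1 of 19 G2/M genes (Cdk1) and 4.60% of all genes tested. CHR letters occurred in 3 of 16 G1/S genes (Mcm2, Mcm7 and Cdc45) and in 0 of 5 regulators. The CHR matches of the G2/M genes had a median position of -18.5 bases from the transcription start, and their CCAAT boxes of -79.0 bases. The core of the AHR response element, GCGTG on either strand, was found in 8 of 16 G1/S genes, 13 of 19 G2/M genes and 5 of 5 regulators, beside 54.4% of all genes tested. A match in any window of a gene was counted, so genes with more windows had more room for one. The 5 regulators had 9 windows, the 16 G1/S genes 18, the 19 G2/M genes 19 and the 11201 genes tested 14263. These letters describe the windows only and show neither binding nor its absence.

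**Figure D1:**
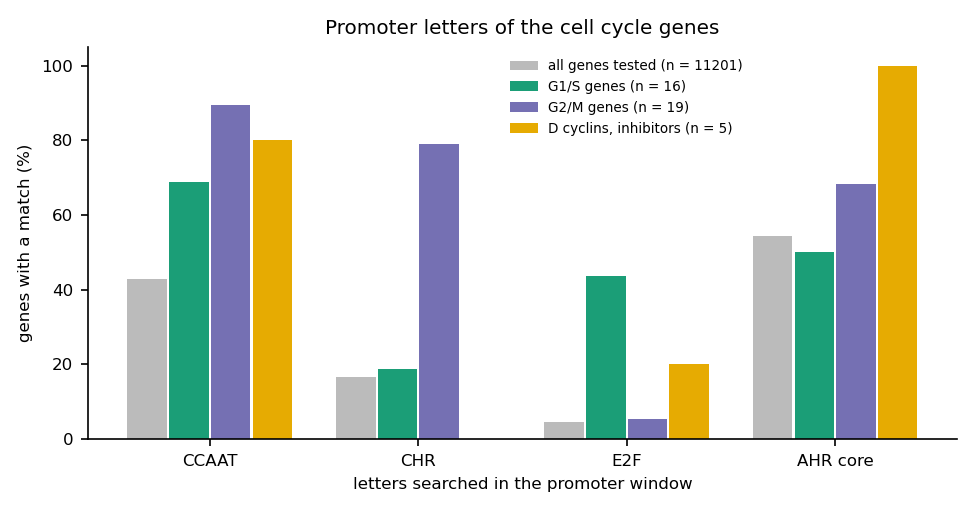
Share of genes (%, vertical axis) whose promoter window holds CCAAT, CHR, E2F or AHR core letters (horizontal axis), for all genes tested with a window, the G1/S genes, the G2/M genes and the D-type cyclins and CDK inhibitors. CHR letters stand out in the G2/M genes (15 of 19) and E2F letters in the G1/S genes (7 of 16).

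The libraries held between 38328611 and 50210111 counts, at which a detection floor of 3 counts equals 0.0597 to 0.0783 CPM (counts scaled to one library size shared by all), and this floor covers counting error only. The 9 ASPC markers, Pdgfra among them, had counts in all 10 libraries and made up 0.476% to 0.758% of the counts. Markers of hepatocytes were also counted in every library, 12 of 12, at 0.178% to 0.239% of the counts in FICZ and at 0.166% to 0.407% in DMSO replicates 1 to 4, but at 1.02% in DMSO replicate 5. Genes known to respond to AHR ligands differed. Cyp1a1, Ahrr and Tiparp had log2 fold changes of 3.25, 1.66 and 0.91 (edgeR's quasi-likelihood test, adjusted p = 0.0189, 0.00324 and 0.0335), and these 3 were the genes past an adjusted p of 0.05 among the 14251 tested (0.0211%).

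All 50 cell cycle genes passed the filter on low counts, in both groups alike. Their levels, as mean CPM in DMSO per kb of annotated exon, spanned from 0.930 for Cdkn1c, the gene of the CDK inhibitor p57, to 102 for Pcna, the sliding clamp of DNA polymerases. Only Cdkn1c and Cdkn2a (Ink4a and Arf, 5.70 CPM per kb) lay under 6 CPM per kb. Rrm2, a subunit of ribonucleotide reductase (83.9 CPM per kb), Ccnb2 (79.4 CPM per kb), Cdc20, an activator of the anaphase-promoting complex (76.5 CPM per kb), and Plk1, a mitotic kinase (72.7 CPM per kb), followed Pcna. Genes of both phases were thus well counted in the confluent cultures, with the lowest count of any G1/S or G2/M gene in any library being 1363 counts.

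After 6 hr of FICZ, no cell cycle gene was called changed. With edgeR, 0 of the 50 reached an adjusted p of 0.05 and 0 reached an unadjusted p of 0.05, while 687 of all genes tested did the latter (4.82%). DESeq2 also called 0 of the 50 at an adjusted p of 0.05, whether or not the model held the replicate number. Over all genes it called only 16, all higher, or 25 higher and 1 lower with the replicate number. The lowest adjusted p of any member was 0.999 with edgeR. With the replicate block, 1 member had an unadjusted p under 0.05, beside 4.65% of all genes. This was Ccnd2 (edgeR, unadjusted p = 0.0303, adjusted p = 0.929). In 0 of the 50 did the DMSO and FICZ libraries separate without overlap (0.47% of all genes tested), and the exact two-sided permutation test over all arrangements of 5 against 5 libraries, whose smallest possible p is 0.00794, gave 0.19 or more for every member.

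The estimates were close to 0 in both directions. The log2 fold changes of the G1/S genes lay between -0.07 (Tyms, thymidylate synthase) and 0.07 (Mcm3), with a median of 0.018. Of these, 13 were above 0 and 6 below. The G2/M genes lay between -0.14 (Ube2c) and 0.19 (Cenpf), with a median of -0.006, 11 above and 12 below 0. The regulators lay between -0.10 (Ccnd3) and 0.21 (Cdkn1c), with a median of 0.006, 4 above and 4 below 0. Over all genes tested the median was 0.011. Without DMSO replicate 5 the values above 0 were 6 of 19 (median -0.035), 13 of 23 (median 0.010) and 4 of 8 (median -0.027) in these 3 groups, so the direction of the medians turned in each. The 95% intervals of the log2 fold changes reached from -0.27 to 0.42 among the G1/S genes, from -0.38 to 0.70 among the G2/M genes and from -0.46 to 0.78 among the regulators. In terms of pairs with the same number, 2 members were higher with FICZ in all 5 pairs, Ccnd2 and Ttk, a spindle checkpoint kinase named after its values were seen, against 4.32% of all genes. Lower with FICZ in all 5 pairs were 0 members, against 2.81% of all genes.

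**Figure D2:**
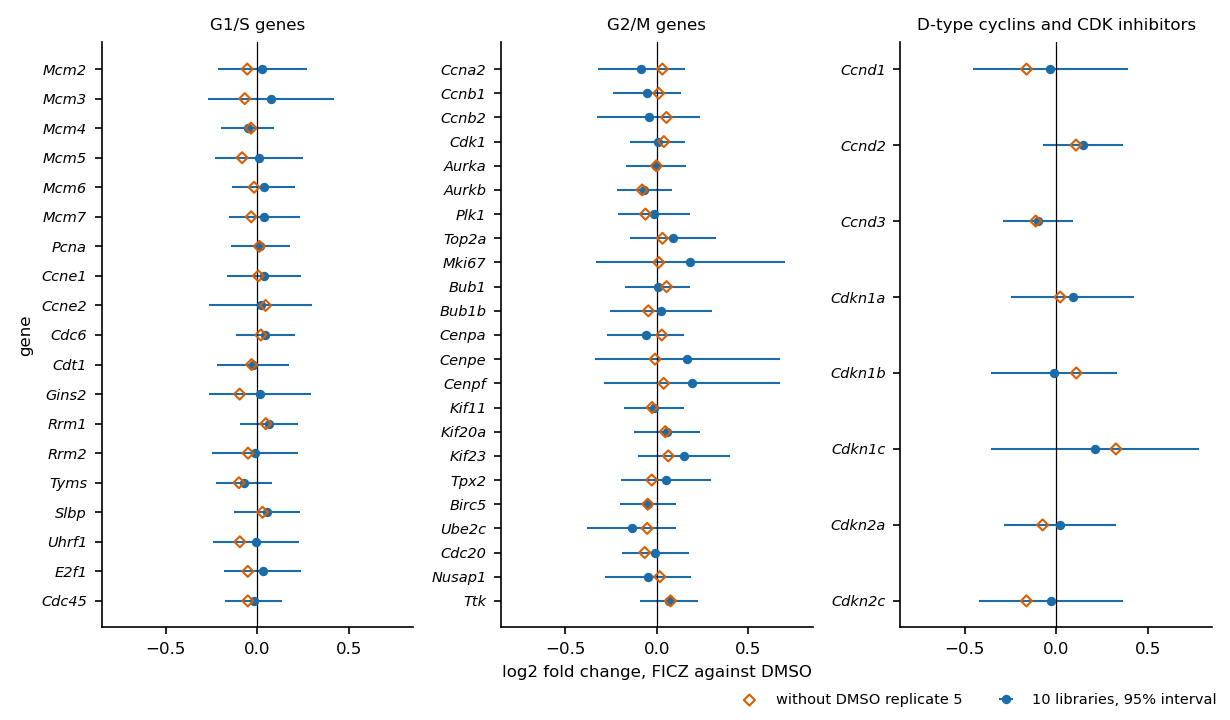
Log2 fold change of each of the 50 genes, FICZ against DMSO (horizontal axis), with its 95% interval over all 10 libraries (filled points) and the value without DMSO replicate 5 (open diamonds). Every interval includes 0, and the widest belong to Cdkn1c, Mki67, Cenpe, Cenpf and Ccnd1.

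To compare the phases per library, a score was taken as the mean log2 CPM over the genes of a phase. The G1/S score was 6.85, 6.94, 6.86, 6.83 and 6.60 in DMSO replicates 1 to 5 and 6.87, 6.88, 6.85, 6.85 and 6.72 in FICZ replicates 1 to 5. The number 5 library was the lowest of both groups, and the groups overlapped (6.82 ± 0.127 in DMSO and 6.83 ± 0.066 in FICZ, mean ± SD, n = 5 each). The G2/M score was 7.01, 7.15, 6.96, 7.03 and 6.91 in DMSO and 7.04, 7.06, 6.87, 7.10 and 7.11 in FICZ. Here FICZ replicate 3 was the lowest of all 10 libraries and the groups again overlapped (7.01 ± 0.091 and 7.04 ± 0.095). The score of the regulators was 5.58, 5.62, 5.55, 5.46 and 5.33 in DMSO and 5.59, 5.54, 5.48, 5.54 and 5.55 in FICZ, with DMSO replicate 5 below all others (5.51 ± 0.117 and 5.54 ± 0.039).

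Within the pairs the scores did not move one way. FICZ minus DMSO of the G1/S score was 0.02, -0.06, -0.01, 0.02 and 0.12 on the log2 scale in pairs 1 to 5, and of the G2/M score 0.03, -0.08, -0.09, 0.07 and 0.20. The score of the regulators differed by 0.01, -0.08, -0.07, 0.08 and 0.22. In each score, pairs 2 and 3 were lower with FICZ, pairs 1, 4 and 5 were higher, and pair 5 held the largest difference. In pair 2 the lower direction was shared by 17 of 19 G1/S genes and 22 of 23 G2/M genes, with medians of -0.07 and -0.08, and by 48.1% of all genes. In pair 5, by contrast, 11 of 19 G1/S genes and 12 of 23 G2/M genes were higher, beside 52.3% of all genes, so about as many genes were higher as lower while their sizes were unequal. The most positive differences in pair 5 were those of Mcm3 (0.80), Gins2 (0.45) and Uhrf1 (0.42) among the G1/S genes, of Mki67 (1.49), Cenpf (1.44), Cenpe (1.43) and Kif23 (0.66) among the G2/M genes, and of Cdkn2c (0.83), Cdkn2a (0.58) and Cdkn1c (0.54) among the regulators. The most negative were those of Ube2c (-0.70), Ccna2 (-0.44), Cenpa (-0.41) and Ccne2 (-0.41). Without both libraries numbered 5, the scores of the groups were 6.87 ± 0.049 and 6.86 ± 0.017 for G1/S and 7.04 ± 0.081 and 7.02 ± 0.100 for G2/M (DMSO and FICZ, n = 4 each).

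**Figure D3:**
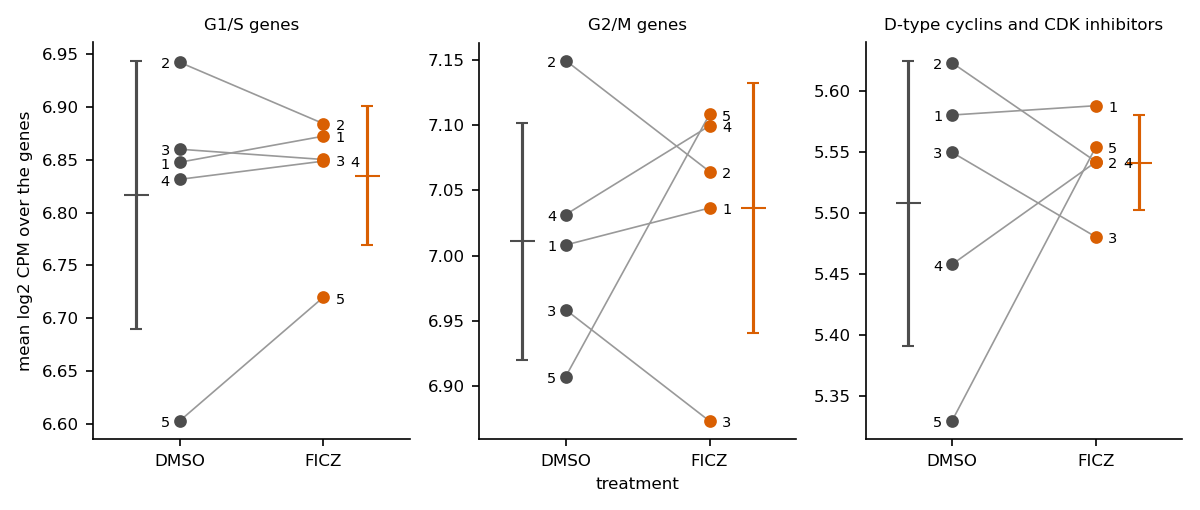
Mean log2 CPM (vertical axis) over the G1/S genes, the G2/M genes and the D-type cyclins and CDK inhibitors in each library, with lines joining libraries of the same replicate number (printed beside each point). Bars beside the points are the mean ± SD of the 5 libraries of a group, and the vertical axes do not start at 0. Pairs 2 and 3 fall and pairs 1, 4 and 5 rise in every panel.

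Among the G1/S genes, those that license and unwind replication origins come first. Mcm5 had 207, 228, 209, 213 and 147 CPM in DMSO replicates 1 to 5 and 206, 217, 205, 193 and 190.3 CPM in FICZ replicates 1 to 5. Every FICZ library lay between DMSO replicate 5 and DMSO replicate 2, the groups overlapped, and the log2 fold change was 0.01 (95% interval -0.23 to 0.25). Mcm3, the member of this phase with the largest log2 fold change, had 179, 193, 186, 169 and 96.5 CPM in DMSO and 176, 183, 162, 177 and 168 CPM in FICZ. Its value of 0.07 (interval -0.27 to 0.42) rested on DMSO replicate 5, since without that library it was -0.07. Cdc6, which loads the helicase, had 48.8, 52.1, 50.2, 47.8 and 45.6 CPM in DMSO and 52.0, 51.6, 53.4, 50.4 and 44.6 CPM in FICZ, with overlapping groups and a log2 fold change of 0.04 (interval -0.12 to 0.20). The other MCM genes, Mcm2, Mcm4, Mcm6 and Mcm7, had log2 fold changes between -0.05 and 0.04.

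Pcna had 232, 254, 241, 251.8 and 239.6 CPM in DMSO and 273, 254, 251, 227 and 227 CPM in FICZ. These were among the steadiest values of the phase in DMSO, and the log2 fold change was 0.02 (interval -0.15 to 0.18). Rrm2 had 233, 258, 252.1, 214 and 206 CPM in DMSO and 239.6, 244, 271, 210.5 and 189 CPM in FICZ, where replicate 5 was the lowest library of each group, and its log2 fold change was -0.01 (interval -0.25 to 0.22). Tyms, with the most negative value and the smallest p of the phase, had 82.4, 91.0, 84.8, 90.4 and 78.2 CPM in DMSO and 86.6, 79.7, 79.1, 84.3 and 76.6 CPM in FICZ. The groups overlapped over most of their range, and the difference of -0.07 (interval -0.22 to 0.08) was not larger than the spread (exact permutation p = 0.214). Uhrf1, which maintains DNA methylation at replication forks, had 184, 209, 186, 182 and 135 CPM in DMSO and 169, 191, 163, 187 and 181 CPM in FICZ (log2 fold change -0.01, interval -0.25 to 0.23). Reads could be shared for some of these genes, since 19.1% of the 50-base stretches of Pcna transcripts, 18.1% of those of Mcm7 and 15.4% of those of Uhrf1 are found in other genes too, in the case of Pcna in the pseudogene Pcna-ps2.

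The regulators of the phase itself were also without a call. Ccne1 (cyclin E1) had 40.3, 39.7, 39.4, 38.9 and 35.3 CPM in DMSO and 42.0, 40.8, 43.1, 41.2 and 31.5 CPM in FICZ. In both groups replicate 5 lay under the 4 others, which were close together, and in 4 of 5 pairs FICZ was higher, by amounts within the spread (log2 fold change 0.04, interval -0.17 to 0.24). Ccne2 (cyclin E2) had 45.6, 47.4, 52.8, 41.2 and 51.2 CPM in DMSO and 44.9, 54.3, 61.5, 41.8 and 38.6 CPM in FICZ, the widest range of any G1/S gene in the FICZ group on the log2 scale, and a log2 fold change of 0.02 (interval -0.26 to 0.30). For E2f1, the activator of the programme, the values were 65.6, 68.1, 66.8, 62.5 and 48.0 CPM in DMSO and 63.1, 65.1, 63.6, 66.8 and 58.4 CPM in FICZ. They overlapped, with a log2 fold change of 0.03 (interval -0.18 to 0.24). Of the exonic bases of Gins2, another helicase factor, 2758 of 4097 are overlapped by Gse1 on the opposite strand, and 609 of 3495 of Ccne2 by Ints8, and how strand was treated in counting is not given in the sources used here.

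Among the G2/M genes, the cyclin B and CDK1 module held no call. Ccnb1 (cyclin B1) had 114, 135, 121, 124 and 152 CPM in DMSO and 129, 130.3, 123, 122 and 117 CPM in FICZ. DMSO replicate 5 was the highest of the 10 libraries, and the log2 fold change was -0.05 (interval -0.24 to 0.13). Cdk1, its kinase partner, had 148, 162, 147, 149.9 and 169.5 CPM in DMSO and 166, 153, 156, 155 and 149 CPM in FICZ (log2 fold change 0.01, interval -0.15 to 0.16). Ccna2 (cyclin A2, active in S and G2) had 212, 244, 216, 225 and 318 CPM in DMSO and 229, 229, 220.4, 231 and 235 CPM in FICZ. Its FICZ libraries lay between 220.4 and 235 CPM while DMSO replicate 5 lay far above the other DMSO libraries, so the log2 fold change was -0.09 (interval -0.32 to 0.15) with that library and 0.03 without it. Of the 50-base stretches of Ccnb1 transcripts, 23.4% also occur in pseudogenes such as Ccnb1-ps.

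Mitotic kinases and the destruction machinery were likewise without a call. Plk1 had 175, 174, 146, 165 and 139 CPM in DMSO and 156, 159, 144, 178 and 153 CPM in FICZ (log2 fold change -0.02, interval -0.21 to 0.18). Aurkb, the kinase of the chromosomal passenger complex, had 73.7, 82.3, 69.8, 81.5 and 73.8 CPM in DMSO and 74.9, 73.9, 69.3, 73.6 and 71.8 CPM in FICZ (log2 fold change -0.07, interval -0.22 to 0.08). Birc5 (survivin), a partner of Aurkb in that complex, had 94.7, 96.2, 91.2, 101 and 95.8 CPM in DMSO and 104, 90.2, 85.3, 91.9 and 91.2 CPM in FICZ (log2 fold change -0.05, interval -0.20 to 0.10). All 3 overlapped between the groups. Cdc20 had 147, 152, 140.3, 155 and 119.9 CPM in DMSO and 151, 142, 133, 147 and 136 CPM in FICZ, and Ube2c had 103, 97.8, 88.7, 86.3 and 123 CPM in DMSO and 98.0, 86.4, 92.0, 101 and 75.5 CPM in FICZ. Although both act on the anaphase-promoting complex, Cdc20 was lowest and Ube2c highest of the DMSO group in replicate 5, and their log2 fold changes were -0.01 (interval -0.19 to 0.17) and -0.14 (interval -0.38 to 0.11). For Ube2c the value was -0.05 without DMSO replicate 5 and -0.0019 without both libraries numbered 5.

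Mki67, Cenpf and Cenpe, which have the longest transcripts of the G2/M genes, varied most among them. Mki67 had 472, 620.3, 533, 499.5 and 232 CPM in DMSO and 388, 571, 431, 631 and 654 CPM in FICZ. Its lowest and highest values of all 10 libraries were those of DMSO replicate 5 and FICZ replicate 5, which carry the same number. Cenpf had 114, 145, 122, 114 and 60.9 CPM in DMSO and 103, 142, 91.2, 134 and 165 CPM in FICZ, and Cenpe, a kinetochore motor, had 128, 141, 131, 100.4 and 52.9 CPM in DMSO and 108, 141, 94.1, 137 and 143 CPM in FICZ. The same pair of libraries held the extremes of Cenpf and Cenpe. The log2 fold changes were 0.18 (interval -0.33 to 0.70), 0.19 (interval -0.29 to 0.67) and 0.17 (interval -0.34 to 0.67), and without DMSO replicate 5 they were 0.01, 0.04 and -0.01. Top2a, the topoisomerase that untangles chromosomes, had 420.5, 520.2, 465, 471 and 375 CPM in DMSO and 435, 496, 415, 506 and 544 CPM in FICZ (log2 fold change 0.09, interval -0.15 to 0.32). Kif23, a motor of the central spindle with the smallest p of the phase, had 97.7, 107, 90.2, 88.9 and 68.7 CPM in DMSO and 101, 101, 84.3, 106 and 109 CPM in FICZ. For this gene the log2 fold change was 0.15 (interval -0.11 to 0.40, exact permutation p = 0.278) and 0.06 without DMSO replicate 5. The other 10 G2/M genes had log2 fold changes between -0.06 (Cenpa) and 0.07 (Ttk).

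**Figure D4:**
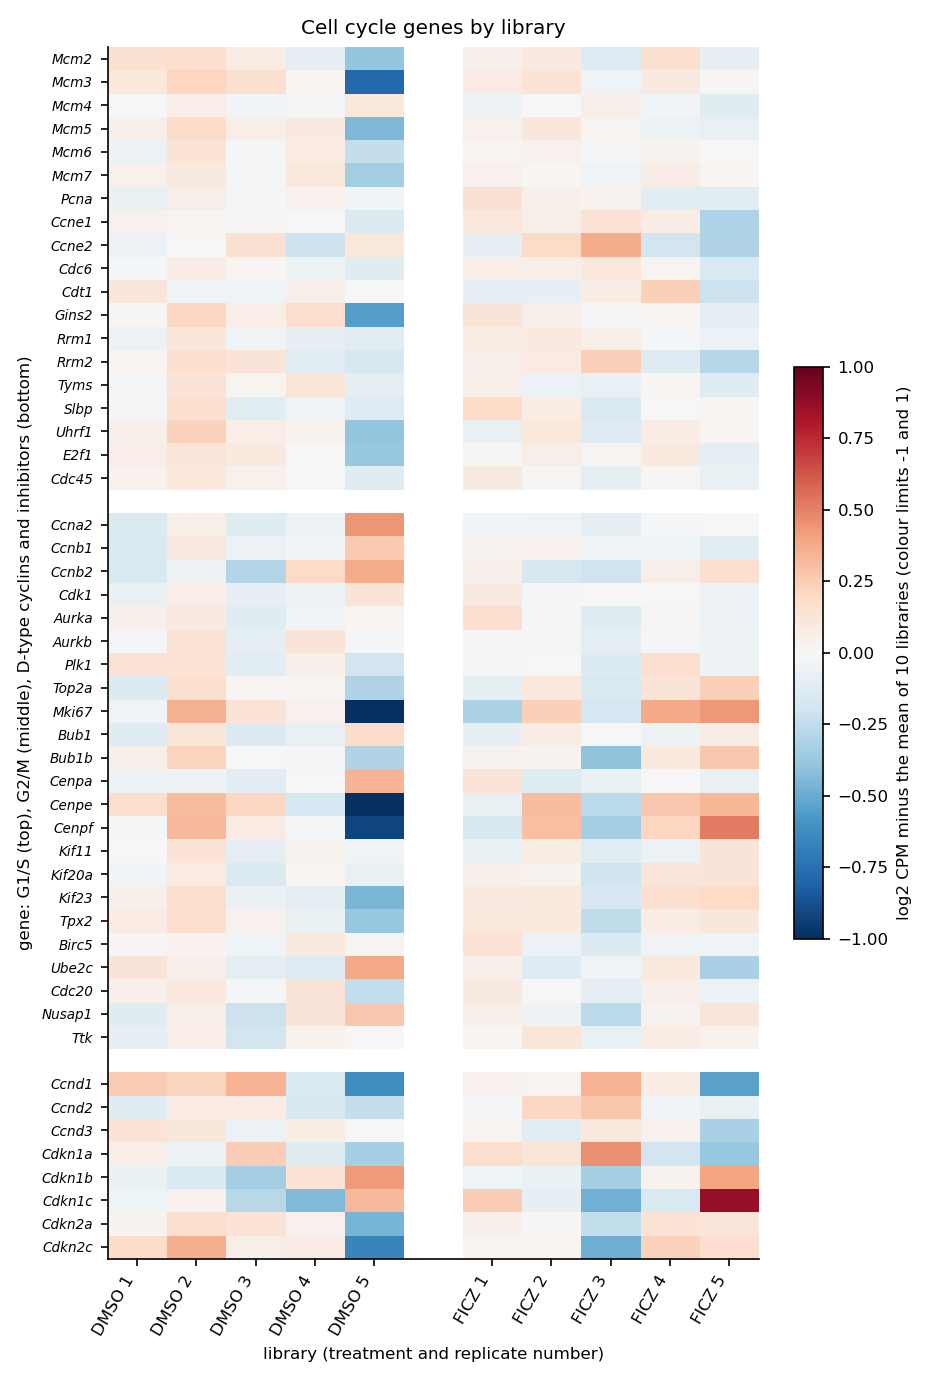
Log2 CPM of the 50 genes (rows, by phase) in the 10 libraries (columns) as the difference from the mean of the gene over all libraries, with colours limited to -1 and 1. DMSO replicate 5 departs widely, with Mki67, Cenpe, Cenpf and Mcm3 low and Ccna2 and Cdkn1b high, and no row changes colour between the groups as a whole.

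Of the D-type cyclins, which pass growth signals to CDK4 and CDK6, Ccnd2 came closest to a difference. It had 339, 391, 391, 330.1 and 314 CPM in DMSO and 366, 426, 449, 362 and 351 CPM in FICZ. Each FICZ library was above the DMSO library of the same number, by 0.11 to 0.20 on the log2 scale, although the groups overlapped because both members of a pair were low or high together. The log2 fold change was 0.15 (interval -0.07 to 0.37, exact permutation p = 0.190), and edgeR gave an unadjusted p of 0.167, or 0.0303 once the replicate block was added. Ccnd1 had 195, 189.6, 207, 146 and 106 CPM in DMSO and 168, 166, 207, 171 and 112 CPM in FICZ, with the number 5 library far below the rest in both groups, and its log2 fold change was -0.03 (interval -0.46 to 0.39). Ccnd3 had 153, 151, 134, 147 and 140.1 CPM in DMSO and 142, 129, 149.5, 144 and 112 CPM in FICZ, and FICZ was lower in 4 of 5 pairs by amounts within the spread (log2 fold change -0.10, interval -0.29 to 0.09). The 3 cyclins did not share a direction.

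Among the CDK inhibitors, Cdkn1a (p21, a p53 target) had 70.7, 65.2, 79.9, 62.1 and 53.6 CPM in DMSO and 76.0, 73.4, 92.4, 58.9 and 52.0 CPM in FICZ (log2 fold change 0.09, interval -0.25 to 0.43). Cdkn1b (p27) had 39.4, 37.4, 32.7, 45.3 and 55.5 CPM in DMSO and 40.1, 39.5, 32.7, 42.3 and 54.2 CPM in FICZ (log2 fold change -0.01, interval -0.35 to 0.33). In both groups Cdkn1a was lowest and Cdkn1b highest in replicate 5, and in both groups Cdkn1a was highest and Cdkn1b at its lowest in replicate 3. Cdkn1c (p57) had 1.91, 2.03, 1.63, 1.45 and 2.46 CPM in DMSO and 2.34, 1.87, 1.41, 1.77 and 3.60 CPM in FICZ. It was the least abundant member, its largest value was that of FICZ replicate 5, and its log2 fold change of 0.21 had the widest interval of all members (-0.35 to 0.78). Of its 2039 exonic bases, 625 are overlapped by an annotated gene on the opposite strand.

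Of the INK4 inhibitors of CDK4 and CDK6, Cdkn2a had 6.84, 7.47, 7.35, 6.89 and 4.84 CPM in DMSO and 6.91, 6.75, 5.63, 7.35 and 7.28 CPM in FICZ (log2 fold change 0.02, interval -0.28 to 0.33), and the gene-level count does not separate p16 from Arf. Cdkn2c (p18) had 72.0, 81.8, 66.0, 67.2 and 40.2 CPM in DMSO and 64.7, 64.6, 45.3, 74.3 and 71.5 CPM in FICZ (log2 fold change -0.03, interval -0.42 to 0.36). It was lowest in DMSO replicate 5 and FICZ replicate 3, which carry different numbers, and the groups of both genes overlapped.

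DMSO replicate 5 departed most in the G1/S score and in the score of the regulators, though not in the G2/M score, and its G1/S and G2/M genes departed in different ways. Its difference from the mean of the 4 other DMSO libraries was -0.27 on the log2 scale in the G1/S score, -0.13 in the G2/M score and -0.22 in the score of the regulators. In the G2/M score FICZ replicate 3 (-0.20) and DMSO replicate 2 (0.17) were farther from the other libraries of their groups. With the median level over genes as the score of a library in place of the mean, the 3 differences of DMSO replicate 5 were -0.75, -0.05 and -0.37. It was the lowest of the 5 DMSO libraries for 15 of 19 G1/S genes, 9 of 23 G2/M genes and 5 of 8 regulators, while for all genes tested this share was 37.4%. Conversely it was the highest for 1 of 19 G1/S genes (Mcm4), 8 of 23 G2/M genes and 2 of 8 regulators, beside 35.8% of all genes. In the G1/S genes the departure thus had mostly 1 direction, with 17 of 19 below the mean of the other libraries, whereas the G2/M genes parted, with 12 below and 11 above. Among the G2/M genes the SD of the departure over genes was 0.496 in DMSO replicate 5 and at most 0.187 in the other DMSO libraries, and over all genes tested 0.700 and at most 0.431. A single library has no replicate, so these values were not tested.

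Many of the departures were small. At least 0.5 below on the log2 scale were 3 of 19 G1/S genes, 3 of 23 G2/M genes and 3 of 8 regulators, against 18.0% of all genes, and at least 0.5 above were 0, 1 and 1, against 18.0% of all genes. The G2/M genes that were low were Cenpe (-1.23), Mki67 (-1.19) and Cenpf (-1.02), the 3 members whose longest transcripts exceed 7500 bases, a length chosen after their values were seen. On the linear scale these were 0.426, 0.440 and 0.495 times the mean of the other DMSO libraries. At the other end stood Ccna2 (0.50), Ccnb2 (0.44), Ube2c (0.39), Cenpa (0.39), the centromeric histone, Nusap1 (0.31), a spindle protein, and Ccnb1 (0.30), of which Ccnb2, Cenpa and Nusap1 were named after their values were seen. Among the G1/S genes the lowest were Mcm3 (-0.91), Gins2 (-0.67), named after its value was seen, and Mcm5 (-0.55), and the highest was Ccne2 (0.14). Among the regulators, Cdkn2c (-0.83), Ccnd1 (-0.79) and Cdkn2a (-0.55) were low and Cdkn1b (0.53) and Cdkn1c (0.49) high.

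Some departures were shared by the FICZ library of the same number and others were opposite in it. The number 5 library was lowest of its group in both DMSO and FICZ for 8 of 19 G1/S genes (Mcm5, Ccne1, Cdc6, Gins2, Rrm1, Rrm2, Tyms and E2f1), 0 of 23 G2/M genes and 3 of 8 regulators (Ccnd1, Ccnd2 and Cdkn1a), beside 10.8% of all genes. It was the highest of both groups for 0 G1/S genes, 4 G2/M genes (Ccna2, Ccnb2, Bub1 and Nusap1) and 2 regulators (Cdkn1b and Cdkn1c), beside 12.2% of all genes. In contrast, 7 of the 23 G2/M genes were lowest of the DMSO group in DMSO replicate 5 and highest of the FICZ group in FICZ replicate 5, namely Top2a, Mki67, Bub1b, Cenpe, Cenpf, Kif23 and Tpx2, beside 6.23% of all genes. FICZ replicate 5 differed from the mean of the other FICZ libraries by -0.14 in the G1/S score and by 0.09 in the G2/M score, so a low G1/S score was common to both libraries numbered 5, while a low G2/M score was not.

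**Figure D5:**
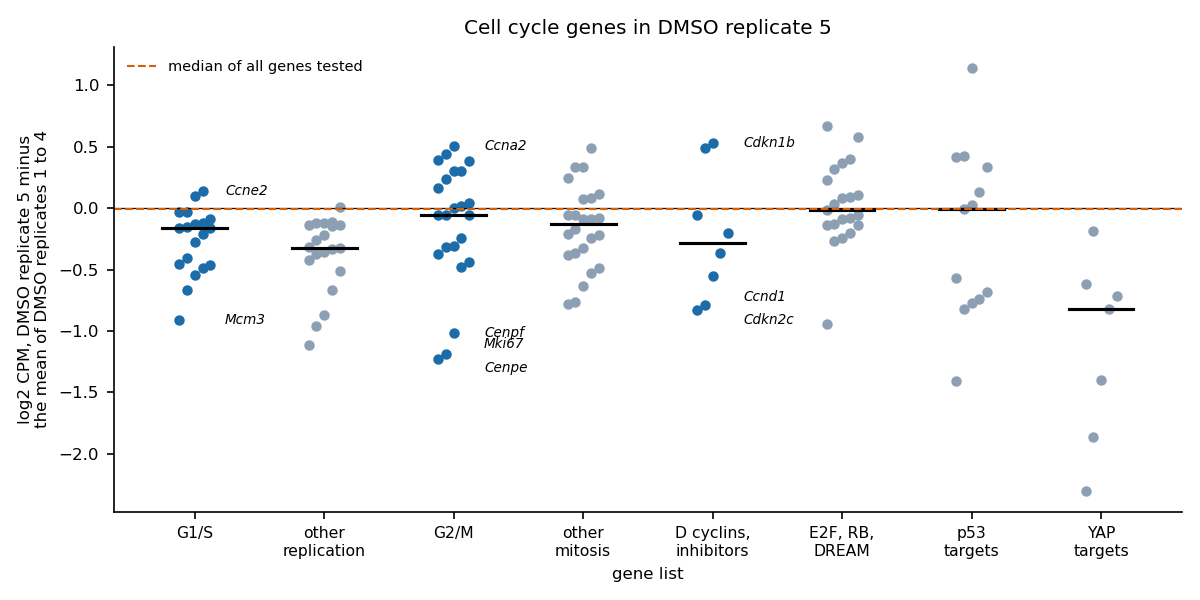
Log2 CPM of DMSO replicate 5 minus the mean of DMSO replicates 1 to 4 (vertical axis) for each gene of 8 lists (horizontal axis), with the 3 groups of the 50 genes in blue, other lists in grey, the median of each list as a bar and the median of all genes tested as a dashed line. The G1/S genes lie mostly below 0, and the G2/M genes spread from -1.23 (Cenpe) to 0.50 (Ccna2).

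Other properties of DMSO replicate 5 moved along with these values. Besides the hepatocyte markers at 1.02%, macrophage markers were at 0.00677% of its counts, against at most 0.00392% in any other library, with all 10 markers counted in every library. Adipocyte markers did not set this library apart. Of the 4 markers, 3 had counts in every library, at 0.00038% to 0.00207% of the counts. Their share was 0.00200% in DMSO replicate 5 and 0.00206% in DMSO replicate 4. The 4th, Lep, the adipocyte hormone leptin, was at 0 in all libraries. Over all genes, the median departure of DMSO replicate 5 went from 0.18 in the fifth of genes with the lowest GC content to -0.21 in the fifth with the highest, and from 0.05 in the fifth with the shortest transcripts to -0.07 in the fifth with the longest. Neither trend was particular to this library. That with GC content went from 0.07 to -0.07 in FICZ replicate 3. It ran the other way in DMSO replicate 1 (-0.08 to 0.12) and FICZ replicate 4 (-0.10 to 0.13). Over all genes, Spearman rho with GC content was -0.22 in DMSO replicate 5, 0.25 in DMSO replicate 1 and 0.35 in FICZ replicate 4. The trend with length went from 0.19 to -0.19 in FICZ replicate 1, from 0.09 to -0.05 in DMSO replicate 1 and from 0.06 to -0.01 in DMSO replicate 4. In DMSO replicates 2 and 3 and FICZ replicates 2 to 5 it ran the other way. Across the 19 G1/S genes the departure of DMSO replicate 5 went with GC content (Pearson r = -0.60, Spearman rho = -0.61), and across the 23 G2/M genes with the length of the longest transcript (r = -0.78, rho = -0.52), the latter falling to r = -0.27 over the 20 genes without Mki67, Cenpe and Cenpf. The reverse pairings were weak, with r = -0.125 for the G1/S genes and length and r = 0.13 for the G2/M genes and GC content. Over all 50 genes r was -0.18 for GC content and -0.48 for length. These are relations across genes of 1 library, which are not independent. For the G1/S genes and GC content, r in the other 9 libraries lay between -0.49 and 0.77 and rho between -0.27 and 0.78, so the value of DMSO replicate 5 was the most negative of the 10. For the G2/M genes and length, r in the others lay between -0.84 and 0.83 and rho between -0.54 and 0.62, a range that includes the values of DMSO replicate 5. Of the 997 genes tested with a longest transcript of at least 7500 bases, 5.12% were at least 1 below in DMSO replicate 5, as were 5.07% of all genes. The part of any of these properties in the values of the cell cycle genes was not tested.

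The comparison of treatments was repeated without DMSO replicate 5. The medians of the log2 fold changes were then -0.035 for the G1/S genes, 0.010 for the G2/M genes and -0.027 for the regulators. An unadjusted p from edgeR at or under 0.05 was found for 0 of the 50 genes, beside 339 among the 14251 genes tested. The G1/S genes went from 13 to 6 of 19 above 0, and the G2/M genes from 11 to 13 of 23. Without both libraries numbered 5 the medians were -0.022, -0.026 and -0.032, again with 0 of the 50 genes called at either threshold. Among the 14251 genes tested, 375 then had an unadjusted p from edgeR at or under 0.05. Since 0 of all genes were past the adjusted threshold, that threshold does not set the 50 genes apart.

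Genes of related lists were read in the same fit, and 0 of their members were past an adjusted p of 0.05. Of 20 other DNA replication genes, 13 were above 0 and 7 below, with a median log2 fold change of 0.031, and Tk1, thymidine kinase, had the smallest p (-0.10, SE 0.11, unadjusted p = 0.383 from edgeR). Of 24 other mitosis genes, 17 were above and 7 below 0, with a median of 0.028, and Melk, a kinase, had the smallest p (0.09, SE 0.08, unadjusted p = 0.287 from edgeR). Of 21 genes of the E2F, RB and DREAM group, 11 were above and 10 below 0, with a median of 0.016. E2f7, a repressor E2F, had 28.9, 31.5, 30.6, 27.3 and 26.8 CPM in DMSO and 28.0, 35.6, 35.7, 36.0 and 30.9 CPM in FICZ. Its groups overlapped, and its log2 fold change of 0.20 had an unadjusted p from edgeR of 0.0556, or 0.0399 with the replicate block. Of 13 p53 targets, 6 were above and 7 below 0, with a median of -0.002, and Gadd45a had the smallest p (0.18, SE 0.21, unadjusted p = 0.397). Of 7 YAP targets, 6 were above and 1 below 0, with a median of 0.10. Ajuba had the smallest p among them (0.22, SE 0.20, unadjusted p = 0.298 from edgeR). With the replicate block, 7 of the 7 YAP targets were above 0 with a median of 0.19, and 2 had an unadjusted p under 0.05 in edgeR, beside 4.65% of all genes. The signs of the fit with no replicate block depended on the libraries numbered 5. Without DMSO replicate 5, 3 of 7 YAP targets were above 0 (median -0.016). So were 6 of 20 other replication genes (median -0.024) and 10 of 24 other mitosis genes (median -0.0023). The p53 targets then had 7 of 13 above 0 (median 0.027) and the E2F, RB and DREAM group 13 of 21 (median 0.0048). Without both libraries numbered 5, 5 of 7 YAP targets were above 0 (median 0.050). So were 7 of 20 other replication genes (median -0.048) and 7 of 24 other mitosis genes (median -0.025). The p53 targets had 6 of 13 above 0 in that fit (median -0.068) and the E2F, RB and DREAM group 14 of 21 (median 0.037). The fit with the replicate block was not repeated without these libraries.

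In DMSO replicate 5 these lists differed from each other as well. It was the lowest DMSO library for 15 of 20 other replication genes and the highest for 0, with a median departure of -0.32, beside -0.16 for the G1/S genes. For other mitosis genes it was lowest in 15 and highest in 5 of 24, with departures from -0.78 to 0.49, and for the E2F, RB and DREAM group lowest in 6 and highest in 8 of 21. It was the lowest for 6 and the highest for 4 of 13 p53 targets. All 7 YAP targets were lowest in DMSO replicate 5 among the DMSO libraries and lowest in FICZ replicate 5 among the FICZ libraries, with a median departure of -0.82 in the former. For all genes tested the median departure was -0.006. DMSO replicate 5 was the lowest DMSO library for 37.4% of them and the highest for 35.8%. The number 5 library was lowest of both groups for 10.8%. The counts of the p53 targets and of the E2F, RB and DREAM group were near these shares.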

How the data were processed

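Bulk RNA sequencing of 10 libraries of cultured ASPCs was used. Per the labels and methods, the authors aligned reads with STAR 2.7.7 to mm10, and deposited raw counts per gene symbol without normalisation, which they passed to DESeq2. The counting program, the annotation and the treatment of strand are not given in the sources used here. Each value was found to be a whole number, and 0 columns were left unused.

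Counts were tested with edgeR 4.0.16 in R 4.3.3 (quasi-likelihood test, robust dispersions, TMM normalisation, filter by expression, Benjamini-Hochberg adjustment over 14251 genes, threshold 0.05). CPM were scaled by TMM factors, and log2 CPM had a prior count of 2. Exact permutation tests of log2 CPM enumerated all arrangements of 5 against 5. Scores and single libraries were not tested. Libraries of 1 group differed by more than sampling noise in all 20 pairs (chi-square per degree of freedom 15.7 to 266). Deviations from the group mean correlated across genes in same-numbered libraries (0.154 to 0.317), while between different numbers they ranged from -0.395 to 0.368 with a mean of -0.060. The numbers were taken to pair the samples because each same-numbered correlation was above 0.1, although some between different numbers were higher. Fits with the replicate block, in edgeR and in DESeq2, were run on all 10 libraries only. Coordinates, lengths, GC content, overlaps and shared 50-base stretches came from the GENCODE annotation of GRCm38, and promoters from RefSeq on GRCm38.p6. The fits were tested on simulated data.

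Alternatives were the replicate block, DESeq2's size factors, DESeq2 1.42.0, other filters on low counts, an adjusted threshold of 0.1, other score definitions and leaving out libraries. Members and lists were chosen with earlier results of these data known. Values were given for a fixed set of members, for the members with the largest and most negative change, smallest p and largest and most negative departure of DMSO replicate 5 in each group, and for the member with the smallest p in each other list. Any other gene named was chosen after its values were seen.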

Additional observations from a re-analysis of the deposited data

Results flagged for a closer look

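A group of 5 libraries was looked at again where the gap between its lowest or highest library and the nearest other one, divided by the whole range, exceeded 0.71, Dixon's 95% limit. This was the case in 10 of 66 groups of log2 CPM values. Chance gives about 1 in 20, or 3.3, for groups chosen without regard to their values. Some of these genes were named for their departure in DMSO replicate 5 or for their fold change. The count of 10 can therefore not be compared with 3.3. In all 10 the library that stood apart was the lowest of its group.

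In DMSO replicate 5 the ratio was 0.7833 for Mcm5, 0.8073 for Mcm3, 0.7363 for Ccne1 and 0.7538 for E2f1 among the G1/S genes. In the same library it was 0.7213 for Mki67 and 0.7268 for Cenpf among the G2/M genes, and 0.7969 for Cdkn2a among the CDK inhibitors. In FICZ replicate 5 it was 0.8237 for Ccne1 and 0.7839 for the G1/S score. In FICZ replicate 3 it was 0.7194 for Cdkn2c. Genes measured in 1 library are not independent of each other.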

How the results depend on the processing

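No cell cycle gene was past the adjusted threshold under any alternative, and signs turned among small and large values alike, including the largest log2 fold change of the 50 (Cdkn1c, 0.21, and -0.052 without FICZ replicate 5). For 36 genes, the alternatives gave 612 values, of which 545 kept the sign and 67, in 23 genes, took the opposite sign. The replicate block changed no call of a cell cycle gene past the adjusted threshold, and gave 8 genes past it over all genes.

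Over all genes, 3 were past the threshold, all higher with FICZ. There were 8 with the replicate block, 16 with DESeq2, 25 with DESeq2 and the replicate block, 0 without both libraries numbered 5, and 1 to 4 without any 1 library. The count fell to 1 without DMSO replicate 1 or 2 or FICZ replicate 1, 2 or 3. Lower with FICZ was 1 gene with DESeq2 and the block, against 0. The departure of DMSO replicate 5 was -0.75 in the G1/S score, -0.050 in the G2/M score and -0.37 in the score of the regulators when a library was scored by its median over genes, against -0.27, -0.13 and -0.22 with means. The median of the departures themselves was -0.16 for the G1/S genes.

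The sign of the log2 fold change turned as follows. With the replicate block it was 0.0011 for Uhrf1, and with DESeq2 and the block -0.0018 for Ccne2. With the stricter filter (50 counts in at least 5 libraries) it was -0.0090 for Mcm5, -0.0054 for Pcna, -0.0048 for Ccne2 and -0.017 for Cdk1, with DESeq2's size factors -0.0019 for Cdk1 and with no filter -0.0023 for Cdk1. Without both libraries numbered 5 it was -0.070 for Mcm5, 0.0036 for Rrm2, -0.032 for E2f1, -0.067 for Mcm3, 0.024 for Ccnb1, -0.026 for Top2a, -0.080 for Mki67, -0.083 for Cenpf, 0.013 for Ccna2, -0.074 for Cenpe, -0.11 for Cdkn2a and -0.068 for Gadd45a. Without any 1 library it ranged from -0.084 to 0.061 for Mcm5, -0.022 to 0.045 for Pcna, -0.075 to 0.040 for Rrm2, -0.096 to 0.051 for Uhrf1, -0.053 to 0.063 for E2f1, -0.069 to 0.14 for Mcm3, -0.084 to 0.075 for Ccne2, -0.11 to 0.0099 for Ccnb1, -0.029 to 0.038 for Cdk1, -0.063 to 0.017 for Plk1, -0.066 to 0.022 for Cdc20, -0.15 to 0.030 for Ccna2, -0.0100 to 0.27 for Cenpe, -0.16 to 0.065 for Ccnd1, -0.027 to 0.17 for Cdkn1a, -0.13 to 0.11 for Cdkn1b, -0.052 to 0.34 for Cdkn1c, -0.074 to 0.082 for Cdkn2a and -0.16 to 0.072 for Cdkn2c. Of these, 8 turned without DMSO replicate 5. The cause was not tested.

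With 5 libraries a group, changes inside the 95% intervals are not excluded. A mean over bulk cells gives no share of cells in a phase. Counts of genes with pseudogenes or opposite-strand neighbours are uncertain to the extent given beside them.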
